A study of Mus musculus with 4 samples.

Results

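The genes described here are the synaptotagmins and the SNARE genes with their syntaxin-binding partners. They were chosen by symbol, as Syt, Sytl, Stx, Stxbp and Vamp followed by a number (Stx with an optional a or b), together with Snap23, Snap25, Snap29 and Snap47. This gave 54 of the 52327 gene names in the deposited table, made up of 17 synaptotagmins, 5 synaptotagmin-like genes, 15 syntaxins, 6 syntaxin-binding protein genes, 7 Vamp genes and 4 Snap genes. RNA sequencing compared rfISCs, labelled as stem cells intermediate between the rosette and formative states and kept in PIF medium, with ESCs, embryonic stem cells kept in 2i medium. Both came from the mouse line 46C, whose Sox1 gene holds a green fluorescent protein reporter, and each group had 2 libraries of total RNA. All values therefore come from 1 line, and the composition of PIF medium is not given in the sources used here.

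SNARE proteins drive membrane fusion: a vesicle SNARE such as a Vamp protein winds together with syntaxin and a Snap protein on the target membrane into a tight bundle that pulls the membranes together. Munc18 proteins of the Stxbp group hold syntaxins and guide the assembly. Synaptotagmins carry paired C2 domains, and several of them bind calcium and trigger the final fusion step when calcium enters the cell. The family is best known from transmitter release in neurons, while many of its SNAREs serve the Golgi, endosomes and the plasma membrane of every cell.

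Counts assigned to named genes totalled 21227219 and 23491513 in rfISCs replicates 1 and 2, against 18940239 and 21169051 in ESCs replicates 1 and 2. Of these the 54 genes held 0.118% and 0.116% in rfISCs and 0.101% and 0.101% in ESCs. The labelled states were checked against marker lists. All 5 formative epiblast genes tested rose in rfISCs and all 6 naive pluripotency genes fell, with summed levels of 782 and 792 CPM in rfISCs against 123 and 107 CPM in ESCs for the first list, and 758 and 760 CPM against 3191 and 3268 CPM for the second. Of 4 genes shared by both states (Pou5f1, Sox2, Sall4 and Lin28a), 2 rose and 2 fell. CPM are counts scaled to a common library size after TMM scaling, as CPM is defined in edgeR.

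Of the 54 genes, 44 passed the filter on low counts and 10 did not. By edgeR's quasi-likelihood test at a Benjamini-Hochberg adjusted p under 0.05 over all genes tested, 19 rose in rfISCs, 9 fell and 16 did not pass. The counts were 16 higher and 3 lower with limma on TPM, and also without rfISCs replicate 2. Across all 16355 genes tested, 53.7% were called, 27.3% higher in rfISCs and 26.4% lower, so that the 28 called of 44 (63.6%) stood near the background. Rises of at least 2-fold were called for 12 of the 44, against 11.9% of all genes, and falls of at least 2-fold for 3, against 10% of all genes. The values of the groups did not overlap for 41 of the 44 genes, which compares with 77.7% over all genes. The median log2 fold change of the 44 was 0.37, against 0.00 over all genes.

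The filter had a part in these counts. It asked for about 0.472 CPM in 2 libraries, and 8 of the 44 genes met that in both rfISCs libraries and in at most 1 ESCs library. They were Snap25, Stx11, Syt1, Syt12, Syt13, Syt17, Syt6 and Sytl2. Entry in this way favours genes that are higher in rfISCs, so a call among them is partly built in, although Stx11 and Syt12 did not pass the test. None entered through ESCs in this way. The other 36 reached the level in all 4 libraries. The 10 genes left untested were Stx19, Syt2, Syt8, Syt10, Syt15, Syt16, Sytl4, Sytl5, Vamp5 and Vamp9, and Syt10 had no count in any library.

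Stretches of DNA just upstream of a gene's start hold its promoter. RefSeq start regions (build GRCm38.p6) were matched for 42 of the 54 genes, and 4 are printed here, as the 250 bases before the most upstream start listed, on the gene's own strand. Syt6 and Syt11 are shown because they rose, and Syt9 and Stx3 because they fell, under every alternative tried, so that the letters can be set beside opposite changes. Capitals mark the CG pairs, the sites of DNA methylation in mammals.
Syt6, chr3:103574995-103575244, plus strand: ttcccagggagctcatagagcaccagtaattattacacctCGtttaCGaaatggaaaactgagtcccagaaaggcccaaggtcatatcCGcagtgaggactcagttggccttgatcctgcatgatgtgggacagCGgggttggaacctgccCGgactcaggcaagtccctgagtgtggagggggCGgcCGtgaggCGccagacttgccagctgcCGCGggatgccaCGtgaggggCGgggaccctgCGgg
Syt11, chr3:88772600-88772849, minus strand: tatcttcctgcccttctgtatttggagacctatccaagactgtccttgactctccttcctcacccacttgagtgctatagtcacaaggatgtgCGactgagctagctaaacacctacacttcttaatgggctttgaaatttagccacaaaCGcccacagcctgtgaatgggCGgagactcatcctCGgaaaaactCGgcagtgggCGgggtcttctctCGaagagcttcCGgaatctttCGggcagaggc
Syt9, chr7:107370540-107370789, plus strand: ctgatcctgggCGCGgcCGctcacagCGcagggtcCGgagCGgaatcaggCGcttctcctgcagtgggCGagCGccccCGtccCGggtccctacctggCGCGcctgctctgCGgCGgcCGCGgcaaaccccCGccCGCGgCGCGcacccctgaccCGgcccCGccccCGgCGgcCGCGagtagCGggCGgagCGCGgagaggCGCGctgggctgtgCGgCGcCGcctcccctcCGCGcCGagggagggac
Stx3, chr19:11819404-11819653, minus strand: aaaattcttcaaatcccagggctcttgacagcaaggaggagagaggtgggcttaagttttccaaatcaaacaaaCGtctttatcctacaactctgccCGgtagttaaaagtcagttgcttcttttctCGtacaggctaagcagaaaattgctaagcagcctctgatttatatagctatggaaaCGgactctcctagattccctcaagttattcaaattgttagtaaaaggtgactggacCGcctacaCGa
The region of Syt9 held 40 CG pairs, a number that 1.31% of all 32851 start regions reach. The regions of Syt6, Syt11 and Stx3 held 13, 9 and 6 pairs, and the median region held 6.

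A set of 4 short motifs was searched on both strands in these regions. GGGCGG, a GC box, was in the regions of Syt6, Syt11 and Syt9 and in 32.74% of all start regions. The E box CACGTG was in that of Syt6 and in 6.02% of all. TATAAA was in that of Stx3 and in 12.37% of all, and the octamer ATGCAAAT, found in 1.6% of all, was in none of the 4. Genes without a matched region included Snap25, Syt12, Syt13, Syt17, Syt4, Syt5, Syt7, Sytl2, Vamp2 and Vamp3.

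The synaptotagmins held the 2 largest rises, in Syt13 and Syt6. Of all genes tested, 27.3% were called higher in rfISCs, 26.4% lower, and 11.9% higher by at least 2-fold. Of the 12 synaptotagmins tested, 8 rose (7 of them at least 2-fold), 2 fell (Syt9 and Syt14) and 2 did not pass (Syt4 and Syt12). Their median log2 fold change was 1.61, against 0.00 over all genes, and 5 of the 12 are among those that passed the filter mainly through rfISCs. The larger was in Syt13, a synaptotagmin that lacks the calcium-binding residues of the classical members. It had 41.2 and 42.1 CPM in rfISCs replicates 1 and 2, against 0.491 and 0.0972 CPM in ESCs replicates 1 and 2. Both rfISCs libraries stood close together at a moderate level, and both ESCs libraries were near the floor of detection, with 9 and 2 counts against 901 and 1016 in rfISCs. The log2 fold change was 7.17 ± 0.27 (SE; adjusted p = 8.94e-08, edgeR's quasi-likelihood test with Benjamini-Hochberg adjustment), and leaving out ESCs replicate 1 gave 8.66 and leaving out ESCs replicate 2 gave 6.39. Syt13 was listed with 1 transcript carrying counts, a protein-coding one of 3761 bases. Since the labels do not tie replicates to separate cultures, such p-values cover only the spread of these 4 libraries, which may be technical. In bulk RNA a change in the share of cells that express a gene cannot be told apart from a change per cell.

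Syt6, a calcium-binding synaptotagmin known from the sperm acrosome and the brain, went with it. Its counts were 216 and 212 in rfISCs (9.88 and 8.79 CPM) and 0 and 3 in ESCs (0 and 0.146 CPM). Both rfISCs libraries were well above both ESCs libraries, of which 1 had no count at all. Over the groups, 428 counts against 3 gave a ratio per library size of 121, with an exact 95% interval of 41.0 to 588 that covers counting error alone (adjusted p = 3.58e-06 by edgeR's quasi-likelihood test). The fitted log2 fold change of 6.82 rests on that near-empty group, with 5.94 when ESCs replicate 1 was left out and 10.64 when ESCs replicate 2 was. The transcripts of Syt6 were not all of the coding kind: protein-coding transcripts made up 65.2% and 47.3% of its TPM (a level scaled to transcript length) in rfISCs replicates 1 and 2, and a transcript class targeted by nonsense-mediated decay 17.8% and 41.6%.

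Syt11 and Syt7 rose from levels that ESCs already had. Syt11, a synaptotagmin of vesicle recycling that does not bind calcium, had 30.3 and 32.6 CPM in rfISCs and 6.16 and 5.98 CPM in ESCs (log2 fold change 2.37 ± 0.12, adjusted p = 5.23e-07 by edgeR's quasi-likelihood test). Its libraries agreed within each group, and the groups lay about 5.18-fold apart. The rise was carried by its 4567-base transcript, at 8.65 and 9.33 TPM in rfISCs against 0.81 and 0.95 TPM in ESCs. A longer coding transcript of 5020 bases ran the other way at a low level, at 0.08 and 0.09 TPM in rfISCs against 0.67 and 0.42 TPM in ESCs, where it held about 48.1 and 34.2 estimated counts. These shares follow the authors' division of reads between transcripts and were not tested.

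Syt7, a high-affinity calcium sensor of lysosome exocytosis and slow release, had 29.1 and 31.4 CPM in rfISCs and 9.27 and 7.68 CPM in ESCs. Its groups did not overlap, and the log2 fold change was 1.84 ± 0.13 (adjusted p = 3.70e-06, edgeR's quasi-likelihood test). With limma on log2(TPM + 1) the call was lost (adjusted p = 0.058), where a 236-base transcript with 1.65 estimated counts was listed at 4.35 TPM in ESCs replicate 2. TPM levels of genes given here leave out transcripts under 300 bases for that reason, and with them left out limma called Syt7 too.

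Syt1, the main calcium sensor of fast transmitter release, was low throughout, with 76 and 112 counts in rfISCs and 11 and 9 in ESCs. Every rfISCs library was above every ESCs library, and the log2 fold change was 2.96 ± 0.38 (adjusted p = 0.00017 by edgeR's quasi-likelihood test). Assembled transcripts without an Ensembl ID held 66.3% and 69.8% of its TPM in rfISCs, and with Ensembl transcripts alone the change did not pass (log2 fold change 2.09, adjusted p = 0.12). Syt3 and Syt5, further calcium-binding members, rose by 0.96 and 1.29 on the log2 scale from levels under 3 CPM in each ESCs library, and for Syt3 the value was 1.64 with Ensembl transcripts alone and 1.61 with limma on log2(TPM + 0.1). Both calls were lost with DESeq2, that of Syt3 also without rfISCs replicate 1 or ESCs replicate 1, and that of Syt5 also with limma on TPM and without rfISCs replicate 2. Syt17, a calcium-independent member, had 1.83 and 1.45 CPM in rfISCs and 0.164 and 0.826 CPM in ESCs, and its log2 fold change of 1.68 just passed (adjusted p = 0.045, edgeR's quasi-likelihood test). The ESCs libraries differed widely from each other: leaving out ESCs replicate 1 gave a log2 fold change of 0.98, and leaving out ESCs replicate 2 gave 3.28. The call was lost with DESeq2, with Ensembl transcripts alone and without ESCs replicate 1, rfISCs replicate 1 or rfISCs replicate 2.

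Syt9, a calcium sensor of fast release and of dense-core vesicles, was the synaptotagmin that fell by at least 2-fold. It had 17.4 and 18.7 CPM in rfISCs, against 38.3 and 39.8 CPM in ESCs. Both rfISCs libraries were at about the same level, well under both ESCs libraries, and the log2 fold change was -1.11 ± 0.10 (adjusted p = 1.27e-05 by edgeR's quasi-likelihood test). The make-up of its transcripts was alike in the groups. Protein-coding transcripts held 33.1% and 36.6% of its TPM in rfISCs and 34.1% and 36.4% in ESCs, the rest lying in assembled transcripts and retained introns. Syt14, a calcium-independent synaptotagmin, had 29.3 and 26.9 CPM in rfISCs and 36.6 and 34.3 CPM in ESCs. Its log2 fold change of -0.33 passed (adjusted p = 0.014, edgeR's quasi-likelihood test) but did not with DESeq2, with limma on TPM, or without rfISCs replicate 2.

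**Figure D1:**
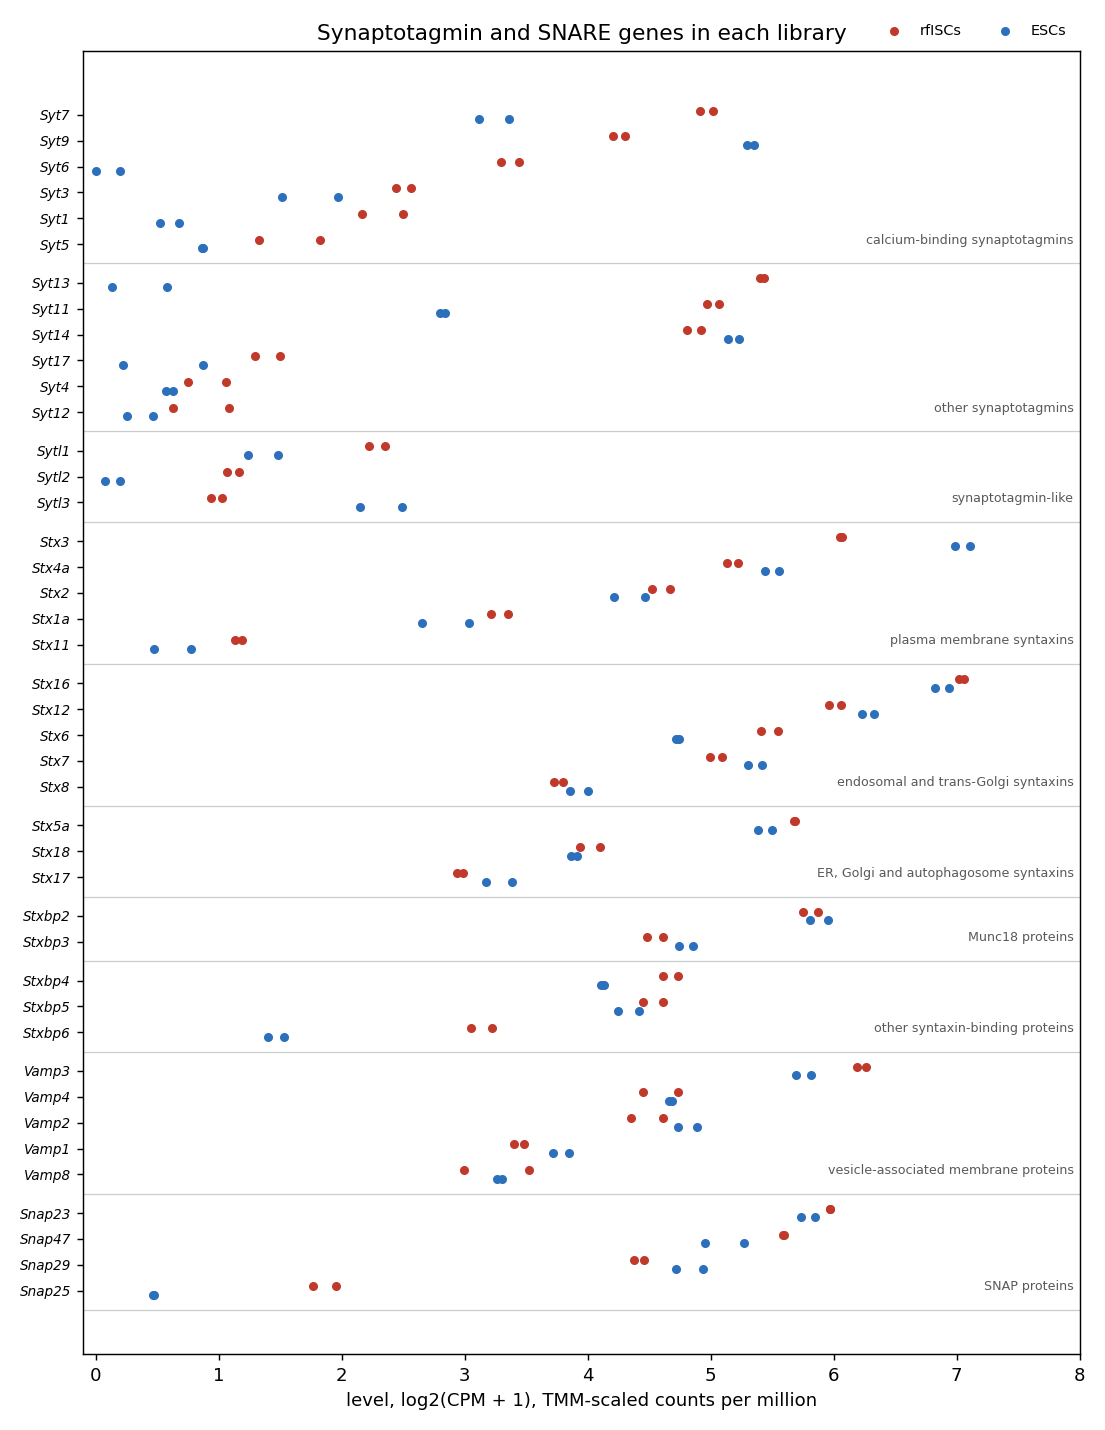
Level of 42 of the 44 tested genes in each library, as log2(CPM + 1) on the horizontal axis, with 1 red point for each rfISCs library above 1 blue point for each ESCs library and the genes grouped by role down the page. Syt13 and Syt6 lie near 0 in both ESCs libraries, Syt9 and Stx3 lie lower in rfISCs, and the points of Stxbp2, Vamp4 and Vamp8 overlap.

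The mixture of synaptotagmin transcripts was set out as a share of their summed TPM, as a description without a test. Summed over the 17 genes, synaptotagmin TPM came to 64.4 and 65.1 in rfISCs and 28.4 and 28.9 in ESCs. In ESCs Syt9 was the leading gene, with 52.1% and 54.3% of that sum in replicates 1 and 2, while in rfISCs it held 12.1% and 13.1%. Syt13 held 25.2% and 25.3% of the sum in rfISCs, against 0.599% and 0.104% in ESCs. Syt11 and Syt7 followed in rfISCs with 15.9% and 17.2%, and 15.99% and 16.07%, ranges that overlapped each other. In ESCs the gene after Syt9 was Syt14, with 20.69% and 18.04%, followed by Syt7 with 9.27% and 6.95% and Syt11 with 8.001% and 6.844%, again overlapping each other. As a ratio of TPM, Syt13 over Syt9 was 2.08 and 1.94 in rfISCs, against 0.0115 and 0.00191 in ESCs.

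**Figure D2:**
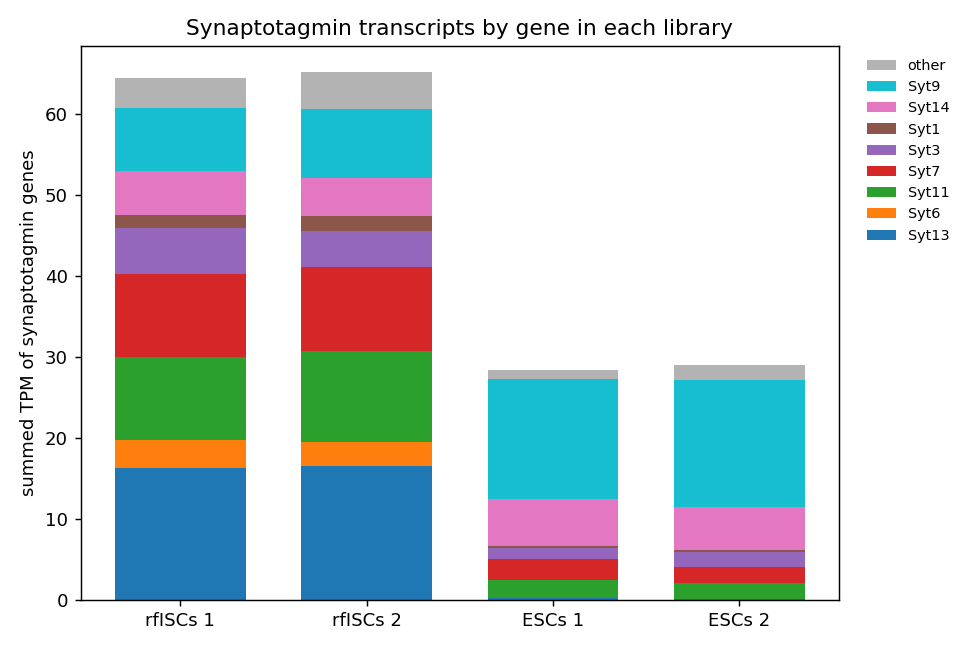
Summed TPM of the 17 synaptotagmin genes in each library, as stacked bars with a colour for each leading gene and grey for the rest, rfISCs left and ESCs right. The rfISCs bars reach 64.4 and 65.1 TPM with Syt13 as the largest block, and the ESCs bars reach 28.4 and 28.9 TPM with Syt9 as the largest.

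Synaptotagmin-like genes encode Rab27 effectors that tether secretory granules and melanosomes. All 3 tested were called, Sytl1 and Sytl2 as higher and Sytl3 as lower, and all 3 were low. Of all genes tested, 53.7% were called, 27.3% higher in rfISCs and 26.4% lower. Sytl3 had 0.915 and 1.04 CPM in rfISCs and 3.44 and 4.62 CPM in ESCs. No rfISCs library reached the level of an ESCs library, and the log2 fold change was -2.04 ± 0.34 (adjusted p = 0.0008 by edgeR's quasi-likelihood test). Sytl2 had 24 and 30 counts in rfISCs and 1 and 3 in ESCs and rose, with no protein-coding transcript among those carrying its TPM. Its log2 fold change was 3.44, and 4.28 without ESCs replicate 2. Sytl2 passed the filter through rfISCs alone, so its call is partly built in. Sytl4 had 7 and 5 counts in rfISCs and 1 and 1 in ESCs, a ratio of 5.08 with an exact 95% interval of 1.13 to 46.7, and was not tested. Sytl5 had 0 and 0 counts in rfISCs and 2 and 1 in ESCs.

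The SNAREs themselves (Stx, Vamp and Snap) showed smaller changes in both directions. Of the 23 tested, 6 rose, 6 fell and 11 did not pass, so that 52.2% were called, against 53.7% of all genes. The median size of their log2 fold change was 0.34, against 0.43 over all genes. With library totals in place of TMM the split was 10 higher and 4 lower, and with limma on TPM 8 and 1. Without rfISCs replicate 2 it was 5 higher and 1 lower. Summed SNARE levels were 785 and 752 CPM in rfISCs and 784 and 790 CPM in ESCs, so the groups overlapped. In TPM the sums were 516 and 486 in rfISCs, against 447 and 444 in ESCs.

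Among the syntaxins of the plasma membrane, Stx3 and Stx4a fell. Stx3, a syntaxin of the apical surface of epithelia and of regulated secretion, had 65.2 and 66.1 CPM in rfISCs, against 126 and 137 CPM in ESCs. Both rfISCs libraries were at about the same level, and neither came near the ESCs libraries (log2 fold change -1.001 ± 0.069, adjusted p = 3.01e-06 by edgeR's quasi-likelihood test). Stx4a, the syntaxin of constitutive and insulin-responsive exocytosis, was lower by 0.33 on the log2 scale, with 36.3 and 34.1 CPM in rfISCs and 46.0 and 42.5 CPM in ESCs (adjusted p = 0.011, edgeR's quasi-likelihood test). That call did not hold with limma on TPM or without rfISCs replicate 2. By TPM, Stx4a was among the most abundant syntaxins in both states, at 52.5 and 51.2 in rfISCs against 60.9 and 54.4 in ESCs, and Stx3 was near it in ESCs alone, at 34.8 and 34.1 in rfISCs against 57.6 and 61.5 in ESCs.

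Further syntaxins of the plasma membrane missed the threshold. Stx1a, a syntaxin of nerve terminals, had 8.28 and 9.20 CPM in rfISCs and 7.20 and 5.30 CPM in ESCs, and its log2 fold change of 0.49 did not pass (adjusted p = 0.066, edgeR's quasi-likelihood test), although it did with library totals, with no filter, with limma on TPM and without ESCs replicate 1 (log2 fold change 0.72). Stx2 and Stx11 also missed the threshold, with log2 fold changes of 0.27 and 1.18.

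Of the endosomal and Golgi syntaxins, Stx6, a SNARE of the trans-Golgi network, showed the largest change. It had 45.7 and 41.5 CPM in rfISCs and 25.3 and 25.8 CPM in ESCs, again without overlap (log2 fold change 0.77 ± 0.09, adjusted p = 0.0001 by edgeR's quasi-likelihood test). The endosomal syntaxins Stx7 and Stx12 were called lower by small margins, by -0.33 and -0.28 on the log2 scale. Both calls were lost with limma on TPM, where the value of Stx7 turned to 0.05, and without rfISCs replicate 2. Stx5a, the syntaxin of transport from the endoplasmic reticulum to the Golgi, was called higher by 0.25, a call lost with DESeq2, with Ensembl transcripts alone and without ESCs replicate 1, rfISCs replicate 1 or rfISCs replicate 2. Stx8, Stx16, Stx17 and Stx18 did not pass, with log2 fold changes between -0.36 and 0.15.

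The Vamp genes changed little. Vamp3, the vesicle SNARE of recycling endosomes and the most abundant Vamp gene by TPM, had 75.8 and 72.0 CPM in rfISCs and 55.4 and 50.7 CPM in ESCs. Both rfISCs libraries were above both ESCs libraries (log2 fold change 0.48 ± 0.08, adjusted p = 0.00069 by edgeR's quasi-likelihood test). Vamp2, the vesicle SNARE of transmitter release, had 23.5 and 19.4 CPM in rfISCs and 28.6 and 25.6 CPM in ESCs. Its log2 fold change of -0.34 just passed (adjusted p = 0.041, edgeR's quasi-likelihood test) and was lost under 8 of 14 alternatives, among them leaving out rfISCs replicate 2 or ESCs replicate 1, with the sign turned to 0.08 with limma on log2(TPM + 1). Vamp1, Vamp4 and Vamp8 did not pass, with log2 fold changes of -0.37, -0.08 and -0.01.

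Among the Snap genes, Snap25 stood apart by its fold and by its low level. Snap25, which pairs with syntaxins at the nerve terminal, had 63 and 58 counts in rfISCs and 7 and 8 in ESCs, or 2.88 and 2.40 CPM against 0.382 and 0.389 CPM. The libraries agreed within each group, and the log2 fold change was 2.76 ± 0.42 (adjusted p = 0.00051 by edgeR's quasi-likelihood test). Its widely expressed relative Snap23 had 61.7 and 61.8 CPM in rfISCs and 56.7 and 52.2 CPM in ESCs and did not pass (log2 fold change 0.18, adjusted p = 0.072 by edgeR's quasi-likelihood test). Per length, Snap25 remained a small fraction of Snap23, with a TPM ratio of 0.0607 and 0.0570 in rfISCs, against 0.0151 and 0.0083 in ESCs. Snap47 and Snap23 were the most abundant Snap genes by TPM, in an order that differed between libraries. Snap47 had 47.01 and 47.30 CPM in rfISCs and 30.1 and 37.7 CPM in ESCs (log2 fold change 0.47 ± 0.11, adjusted p = 0.0053 by edgeR's quasi-likelihood test). Snap29, a SNARE of endosomes and autophagosomes, had 20.9 and 19.8 CPM in rfISCs and 29.7 and 25.3 CPM in ESCs. Its log2 fold change of -0.43 passed (adjusted p = 0.01 by edgeR's quasi-likelihood test) but did not with limma on TPM or without rfISCs replicate 2.

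All 6 syntaxin-binding protein genes were tested, and none fell. The Munc18 genes Stxbp2 and Stxbp3, active outside neurons, did not pass. Stxbp2, the most abundant of the group by TPM, had 57.7 and 52.9 CPM in rfISCs and 61.1 and 55.0 CPM in ESCs, ranges that overlapped. Stxbp6 (amisyn), a syntaxin-binding inhibitor of fusion, had 7.27 and 8.33 CPM in rfISCs and 1.64 and 1.89 CPM in ESCs. Both rfISCs libraries were far above both ESCs libraries (log2 fold change 2.14 ± 0.23, adjusted p = 5.90e-05 by edgeR's quasi-likelihood test). Stxbp4 rose by 0.58, and Stxbp5 (tomosyn), another inhibitor of SNARE assembly, did not pass at 0.21.

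**Figure D3:**
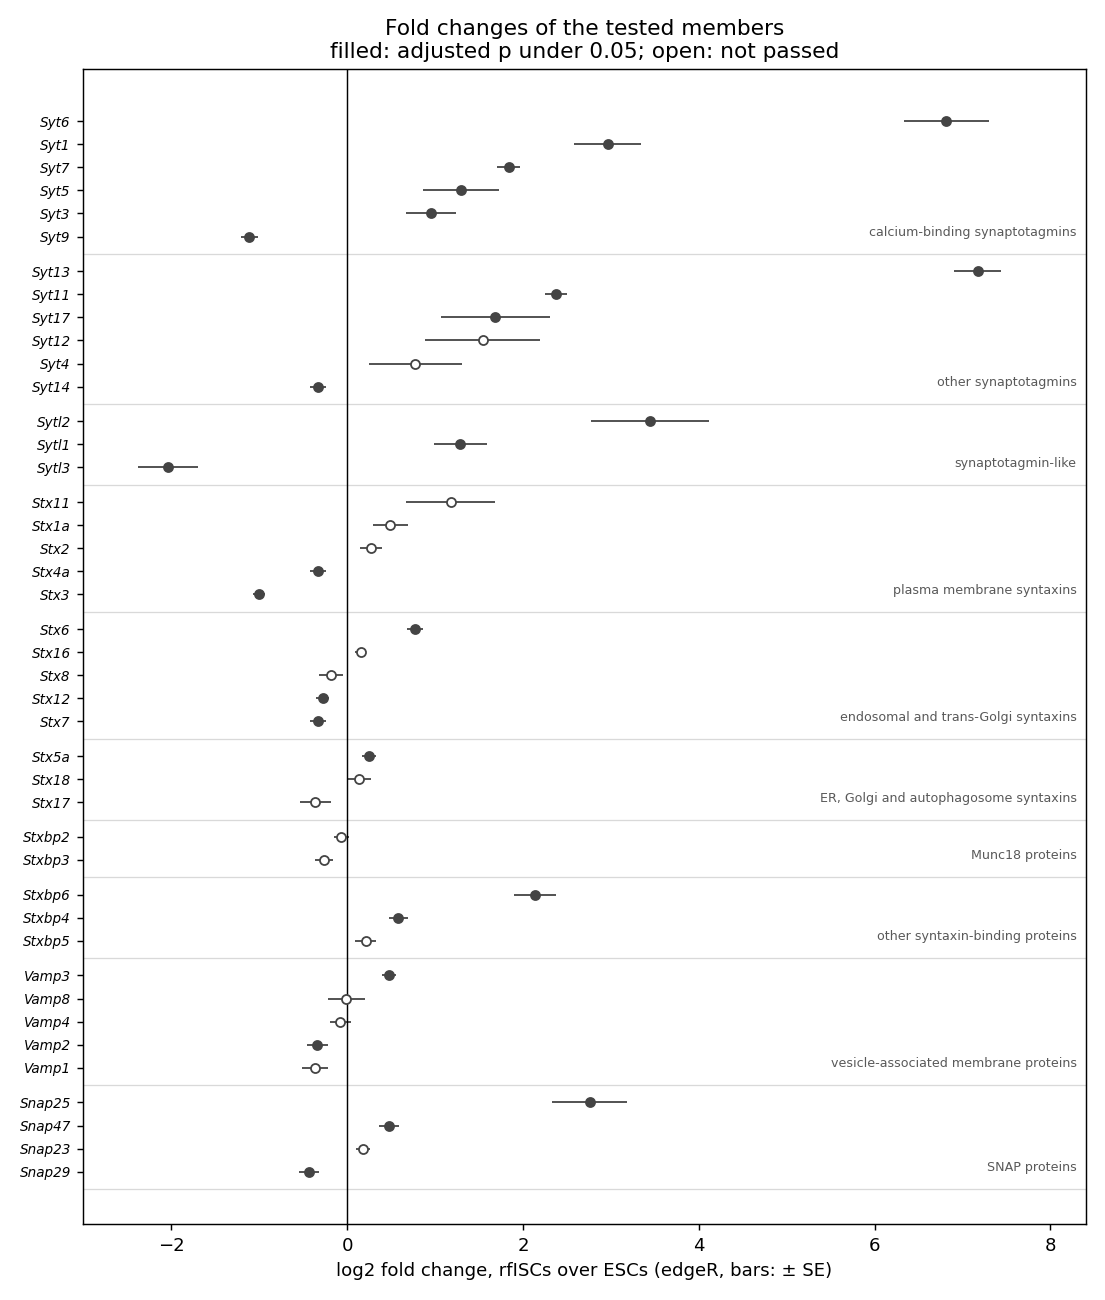
Log2 fold change of rfISCs over ESCs from edgeR on the horizontal axis for 42 of the 44 tested genes, with bars of 1 SE, filled points for an adjusted p under 0.05 and open points for genes that did not pass. Synaptotagmins spread from -1.11 for Syt9 to 7.17 for Syt13, while most syntaxin, Vamp and Snap genes lie close to 0.

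Among genes best known from transmitter release in neurons, Syt1 and Snap25 rose, Vamp2 was called lower and Stx1a did not pass. Syt2 had 2 and 13 counts in rfISCs and 3 and 1 in ESCs, overlapping ranges, and was not tested. Those that rose stayed low, at 3.48 and 4.64 CPM for Syt1 and 2.88 and 2.40 CPM for Snap25 in rfISCs. As a level per length, Syt1 was 1.66 and 1.79 TPM in rfISCs, about 0.102 and 0.109 of the TPM of Syt13.

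Markers of other cells were measured beside these genes. Of 12 neuronal markers, all tested, 6 rose, 1 fell and 5 did not pass, so that 58.3% were called, against 53.7% of all genes. Of all genes 27.3% were called higher in rfISCs. Rises of at least 2-fold were called for 5 of the 12, against 11.9% of all genes. The 6 that rose were Tubb3, Dcx, Map2, Elavl3, Gap43 and Syp, with log2 fold changes of 0.55, 6.90, 1.12, 1.98, 1.95 and 1.60. The summed level of the 12 markers was 398 and 404 CPM in rfISCs and 404 and 397 CPM in ESCs. Stmn2, the marker that fell, made up much of that sum, with 196 and 194 CPM in rfISCs and 272 and 286 CPM in ESCs. The other 11 markers summed to 202.5 and 210.0 CPM in rfISCs, against 132 and 111 CPM in ESCs. Dcx, a gene of migrating young neurons, had 0.732 and 0.663 CPM in rfISCs and no count in ESCs, and passed the filter through rfISCs alone. Gap43 had 34.3 and 39.1 CPM in rfISCs and 10.7 and 8.31 CPM in ESCs. Rbfox3, of mature neurons, had 2.10 and 1.49 CPM in rfISCs and 3.44 and 2.14 CPM in ESCs and did not pass. Of 5 neural progenitor markers, 3 were tested and all 3 rose, with summed levels of 155 and 151 CPM in rfISCs against 72.0 and 65.4 CPM in ESCs. Nes made up much of these sums, with 90.9 and 88.1 CPM in rfISCs and 67.8 and 63.4 CPM in ESCs. Sox1 had 38.2 and 35.3 CPM in rfISCs and 1.80 and 1.26 CPM in ESCs. Pax6 had 25.2 and 26.5 CPM in rfISCs and 2.35 and 0.729 CPM in ESCs. Of 8 neuroendocrine markers, which label cells that store hormones in dense-core granules, 5 were tested, 4 rose and 1 fell, and their sums were 23.1 and 22.3 CPM in rfISCs against 11.6 and 9.18 CPM in ESCs. Pcsk1, the neuroendocrine marker that fell, made up much of the ESCs sums, with 3.80 and 4.19 CPM in rfISCs and 8.73 and 6.27 CPM in ESCs. Insm1, a transcription factor gene that rose, had 3.16 and 3.81 CPM in rfISCs and 0.109 and 0.146 CPM in ESCs. Insm1 passed the filter through rfISCs alone, so its call is partly built in. The part of any such cells in the changes of the synaptotagmin and SNARE genes was not tested.

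Markers of further cell types had lower sums in each group than the lists just given, though some rose by large folds. Of all genes tested, 53.7% were called. Of 6 trophoblast markers 2 were tested and both rose, with sums of 5.49 and 6.13 CPM in rfISCs and 0.2182 and 1.0203 CPM in ESCs, and Tpbpa was at 0 in all libraries. Of 8 fibroblast and feeder markers 4 were tested and 3 rose, with sums of 14.2 and 14.7 CPM in rfISCs and 5.29 and 8.26 CPM in ESCs, and Lum and Fap were at 0. Thy1, which did not pass, made up much of these sums, with 7.77 and 8.25 CPM in rfISCs and 5.07 and 7.77 CPM in ESCs. Col1a1 had 3.57 and 3.65 CPM in rfISCs and 0.164 and 0.486 CPM in ESCs. Of 5 primitive endoderm markers 3 were tested and 2 rose, with sums of 15.5 and 14.3 CPM in rfISCs and 2.35 and 3.21 CPM in ESCs. Dab2 made up much of the rfISCs sums, with 8.64 and 8.17 CPM in rfISCs and 0.382 and 0.194 CPM in ESCs. None of 3 blood cell markers could be tested, and Ptprc was at 0. Their part in the results was not tested either.

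Other genes of membrane fusion were examined as a list of 84, of which 71 were tested. In all 22 rose, 17 fell and 32 did not pass, so that 54.9% were called, against 53.7% of all genes. The split was 26 higher and 9 lower with library totals, 23 and 5 with limma on log2(TPM + 1), and 17 and 8 without rfISCs replicate 2. Rises of at least 2-fold were called for 10 of the 71 (14.1%), near the 11.9% of all genes. Of the 71, 4 (Cplx1, Rims4, Slc17a7 and Synpr) passed the filter in both rfISCs libraries and in at most 1 ESCs library. Such entry favours genes that are higher in rfISCs, so a call among them is partly built in. Synpr did not pass the test, with 0.503 and 0.497 CPM in rfISCs and 0.873 and 0.340 CPM in ESCs. Of 12 priming and clamping genes, 6 rose and 1 fell, which was Rims2 (log2 fold change -0.35). By TPM Rims2 ran the other way, at 52.5 and 51.9 in rfISCs against 26.8 and 24.3 in ESCs. Among the 6 that rose were Rims4 and the complexin genes Cplx1 and Cplx2. Complexins are small proteins that hold assembled SNAREs until calcium arrives. The complexin genes Cplx3 and Cplx4 had almost no counts and were not tested. Rims4, a gene of the release-site scaffold, had 6.81 and 8.04 CPM in rfISCs and 0.545 and 0.291 CPM in ESCs (log2 fold change 4.15 ± 0.34, adjusted p = 8.57e-06 by edgeR's quasi-likelihood test). Cplx2 had 14.1 and 12.9 CPM in rfISCs and 1.80 and 3.16 CPM in ESCs (log2 fold change 2.43). Cplx1 had 1.05 and 1.33 CPM in rfISCs and 0.273 and 0.0972 CPM in ESCs (log2 fold change 2.68, and 3.54 without ESCs replicate 1). For each of Rims4, Cplx2 and Cplx1 both rfISCs libraries were above both ESCs libraries. Of 8 synaptic vesicle genes 4 rose and 1 fell. Sv2a, a vesicle glycoprotein gene, rose by 2.44 on the log2 scale, with 12.2 and 14.2 CPM in rfISCs and 2.29 and 2.58 CPM in ESCs, and Sypl, a synaptophysin relative found outside neurons, fell by 0.64.

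Genes of the general machinery mostly changed by less than 2-fold, as did most genes tested (median size of the log2 fold change 0.43). Of all genes tested, 53.7% were called, 27.3% higher in rfISCs and 26.4% lower. Changes of at least 2-fold were called higher for 11.9% of all genes and lower for 10%. Of 4 genes that take spent SNARE bundles apart, 3 fell, all by less than 2-fold. They were Nsf, the ATPase of this step, and its adaptors Napa and Napg, with log2 fold changes of -0.41, -0.24 and -0.30. In TPM, Napa had 85.6 and 79.2 in rfISCs and 81.5 and 83.7 in ESCs, ranges that overlapped, while Nsf and Napg stayed lower in rfISCs. Of 12 further SNAREs 3 rose and 3 fell, between -0.33 for Vti1b and 0.49 for Ykt6. Of 19 tethering and SM protein genes 4 rose and 4 fell, with the largest fall in the exocyst gene Exoc6b (log2 fold change -1.48) and the largest rise in Exoc8 (0.74). Of 11 vesicle Rab genes 4 rose and 2 fell, led by Rab8b (1.09) and Rab3a (-0.58).

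Genes of other C2 domain proteins included the largest fall of the list. Myof (myoferlin), a ferlin that takes part in membrane repair, had 75.7 and 77.8 CPM in rfISCs, against 339 and 314 CPM in ESCs. Both rfISCs libraries were far under both ESCs libraries (log2 fold change -2.09 ± 0.06, adjusted p = 2.74e-08 by edgeR's quasi-likelihood test). Its relative Dysf (dysferlin) rose by 1.30 on the log2 scale, with 12.7 and 11.8 CPM in rfISCs and 5.46 and 4.52 CPM in ESCs. The extended synaptotagmins Esyt1 and Esyt2, which tether the endoplasmic reticulum to the plasma membrane, fell by 0.61 and 0.26 on the log2 scale. In TPM, Esyt2 had 26.3 and 25.6 in rfISCs and 28.6 and 26.0 in ESCs, ranges that overlapped, while Esyt1 stayed lower in rfISCs.

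**Figure D4:**
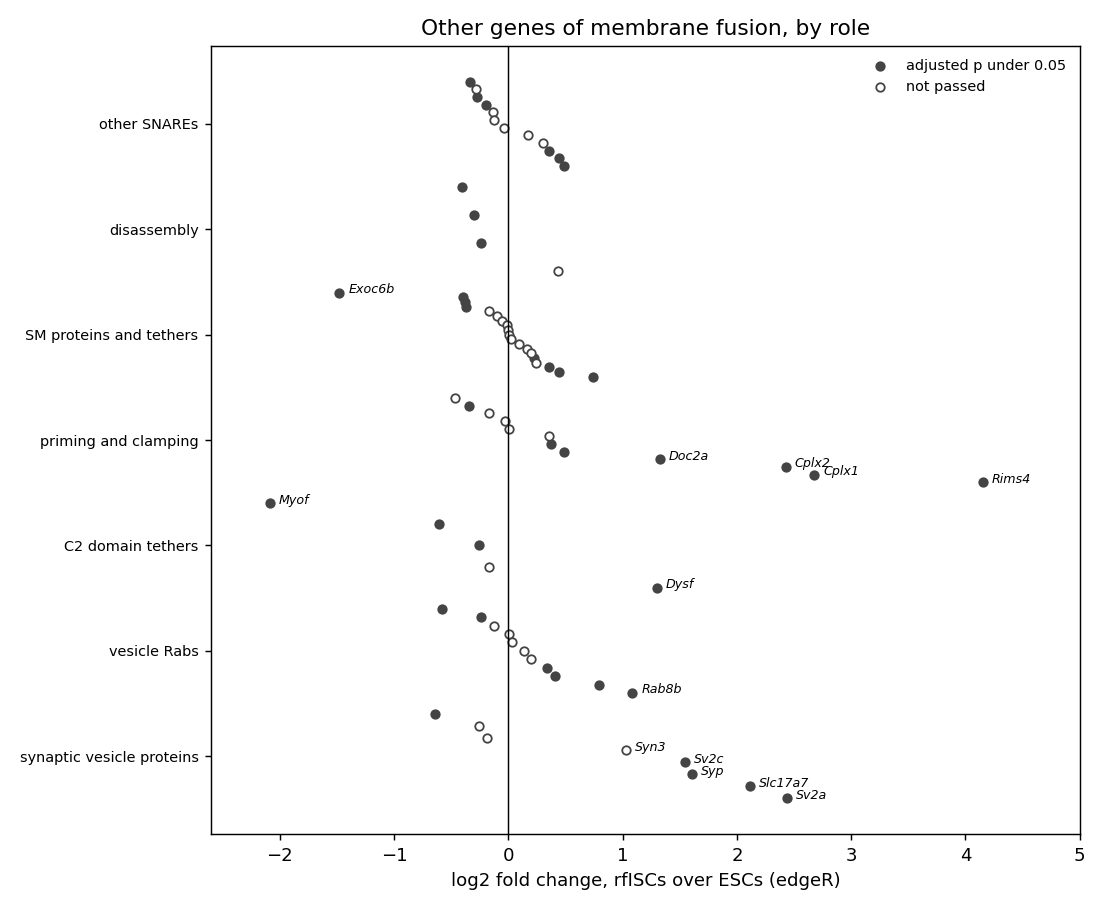
Log2 fold change of rfISCs over ESCs from edgeR for the 71 tested genes of the membrane fusion list, grouped by role down the page, with filled points for an adjusted p under 0.05 and open points for genes that did not pass. Names mark genes beyond 1 log2 unit: Rims4, Cplx1, Cplx2, Sv2a and others lie to the right, and Myof and Exoc6b lie to the left.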

How the data were processed

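The authors deposited 1 table of 160308 transcripts with estimated counts and TPM for each of the 4 libraries, per the file headers. It also holds the authors' fold change as a ratio, its log2 and p-values, which were not used here. Bowtie 0.12.2 and the build mm9 are listed, without roles, in the submitters' processing notes. The quantifier, assembler, annotation, strand setting and the authors' test are not given in the sources used here, so no gene coordinates of the table are printed, and reads shared by near-identical or overlapping genes are uncertain. Of 339 Ensembl transcripts of the members, 334 had the length given by GENCODE M21. The promoter table is RefSeq's, and matches were made by symbol.

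Estimated counts were summed per gene name and rounded to whole numbers. Transcripts with a blank gene name (3382) stayed out of library sizes and tests, and held 1.27% and 1.22% of counts in rfISCs and 1.58% and 1.62% in ESCs. Genes were kept by filterByExpr at a minimum count of 10, and tested with edgeR 4.0.16 (quasi-likelihood, TMM, R 4.3.3) on all 4 libraries, adjusted by Benjamini-Hochberg over 16355 genes. The SE is the log2 fold change over the square root of its F statistic. With 2 libraries a group an exact permutation test of 1 gene cannot go below p = 0.333. Gene TPM are sums over transcripts of at least 300 bases. Alternatives used DESeq2 1.42.0, limma 3.58.1 and other scalings, filters and libraries. The fits were also run on simulated counts with 200 changed genes and no other group difference. Many more genes were called in these data, so that run does not measure the error rate here.

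Replicates of a group differed by more than sampling noise (chi-square per degree of freedom 4.55 in rfISCs and 6.71 in ESCs). Intervals cover counting error alone. The members, the gene lists and the rule for named genes were chosen with earlier results of these data known. The rule names called members at 1 CPM or more, up to 10 in each direction by size of change, the most abundant member of each subfamily by TPM, the transmitter release set, and members at 0 in 1 group with at least 10 counts in the other, of which there were none. A few members that it names are not reported here. The other members named, and the printed regions, were picked with their values in view. The authors' log2 and p-value columns were left out because they are per transcript.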

Additional observations from a re-analysis of the deposited data

How the results depend on the processing

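Under 14 alternatives, 14 of the 28 called members kept their call throughout, 11 that rose and 3 that fell (Syt9, Stx3 and Sytl3). Members called lower numbered 3 with limma on log2(TPM + 1), on log2(TPM + 0.1) and on transcripts of at least 300 bases (added after seeing the data), against 9. Leaving out 1 library gave 3 to 10, with 3 without rfISCs replicate 2. Fusion genes called numbered 39, and 25 to 41 with 1 library left out, with 25 without rfISCs replicate 2. Synaptotagmins called higher numbered 8, against 5 with DESeq2, 4 with limma at either pseudocount, 5 on transcripts of at least 300 bases and 5 with Ensembl transcripts alone. The limma fits tested 8 synaptotagmins in place of 12, with Syt1 and Syt17 not tested, and Ensembl transcripts alone left Syt5 untested. The share of member calls that were higher was 67.9% (50.9% over all genes), 76.7% with library totals (59.2%) and 84.2% with limma on TPM (66.3%), scalings that moved the median of all genes by 0.08 and 0.15. It was also 84.2% without rfISCs replicate 2 (50.6%), where that median was -0.001. The log2 fold change of Vamp2 turned to 0.0847 with limma (0.0895 at the lower pseudocount), that of Stx7 to 0.0537 (0.0556), and that of Stxbp2, not called, to 0.0151 with library totals and 0.186 with limma (0.189, and 0.0343 on transcripts of at least 300 bases). Leaving out 1 library gave Stxbp2 values from -0.146 to 0.00344. The causes were not tested. Same-numbered replicates did not deviate together (correlation 0.00103), and with the replicate number as a block the members gave 19 higher and 9 lower and all genes 8824 calls, against 8783. Counts under about 10 a library limit the folds of Syt13, Syt6, Syt1, Snap25 and Sytl2.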
